A study of Mus musculus with 27 samples.

Results

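The comparison described here is the time course of naive mouse B cells kept in culture with anti-CD40 and IL-4, 24 h against 6 h. Its members are the libraries that the labels give to that stimulation, 3 at 6 h and 3 at 24 h, or 6 of 27 libraries in all. Splenic B cells of wild-type mice were used as primary cells, and polyadenylated RNA was sequenced. Anti-CD40 was the monoclonal antibody clone HM40-3 at 1 µg/mL, and IL-4 was used at 12.5 ng/mL. Both groups held both agents, so time in culture was what differed between them. For comparison, 6 libraries had anti-CD40 alone and 6 had anti-CD40 with IL-21 at 50 ng/mL, 3 of each at 6 h and 3 at 24 h, and 3 libraries were of naive cells that were not stimulated. The other 6 libraries of the series, with both cytokines, enter only the shared estimate of spread. Purified B cells in a dish lack T cells and antigen, so both signals came from the added agents. No label ties the replicates to separate mice or wells, so the p-values measure the spread between these libraries, which may be technical.

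CD40 is the receptor through which helper T cells stimulate B cells. It signals mainly through TRAF adaptor proteins to NF-kB, which switches on survival, adhesion and feedback genes. IL-4, another helper T cell signal, acts through JAK kinases and the factor STAT6, which opens the germline transcripts of the IgG1 and IgE genes ahead of class switching and raises surface molecules such as CD23. A resting B cell given both signals first passes through an early response without division, then enlarges and enters the cell cycle, where E2F factors switch on DNA replication genes and later factors, bound at CHR and CCAAT elements, switch on the genes of mitosis.

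Expression is given in TPM, a share of all transcripts that is scaled by gene length and carries no read depth. The depth of the libraries is therefore unknown, and a lower TPM cannot tell fewer cells of a type from less RNA per cell. Changes are differences in log2(TPM + 1), 24 h minus 6 h, with the standard error of the fit and n = 3 libraries per group, and called genes are those with an adjusted p under 0.05 (limma, all 27 libraries, Benjamini-Hochberg over 12147 genes). Libraries correlated at 0.969 to 0.975 within the 6 h group and 0.927 to 0.977 within the 24 h group, against 0.902 to 0.95 between them. Library 1 at 24 h stood apart from the other two: its genes deviated from the group means with an SD of 0.499, and it was the 24 h library nearest to the 6 h mean for 2288 of the 3091 genes called with time, against 285 for library 2 and 518 for library 3. Mitochondrially encoded transcripts made up 7.89% of it against 11.63% and 10.97%, and ribosomal protein transcripts 23.5% against 29.36% and 29.51%. These shares were 6.91% to 10.63% and 25.08% to 28.74% in the 6 h libraries, so both overlapped between the times. Median-of-ratios scaling factors were 0.951 to 1.01 at 6 h but 1.12, 0.705 and 0.598 at 24 h, so the split of rises and falls depends on scaling.

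Of the 12147 genes tested, 3091 (25.4%) were called, 1071 higher at 24 h (8.82%) and 2020 lower (16.6%). A change of 2-fold or more was seen in 1606 of these. The 6 values of 3556 genes (29.3%) did not overlap between the times. The median of all genes was -0.13, and 34.6% of the called genes were higher. After median-of-ratios rescaling the median was 0.06 and 53.9% of 3895 called genes were higher, with 2767 genes called both ways and 3 of the original calls changed in sign. Rescaling together with leaving out library 1 at 24 h changed the sign of 72 of the original calls. Without library 1 at 24 h, 4822 genes were called and 24.3% of them were higher, against 1846 without library 2 and 1879 without library 3. A fit to the 6 libraries alone, in which each gene's spread rests on those libraries and not on all 27, called 522 genes, 504 of them among the 3091. For the gene lists below, counts after rescaling, in this smaller fit and without library 1 at 24 h are given where they differ much from the first count. All 24 of the largest changes described next were called in it, and these were chosen among called genes whose times do not overlap.

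**Figure D1:**
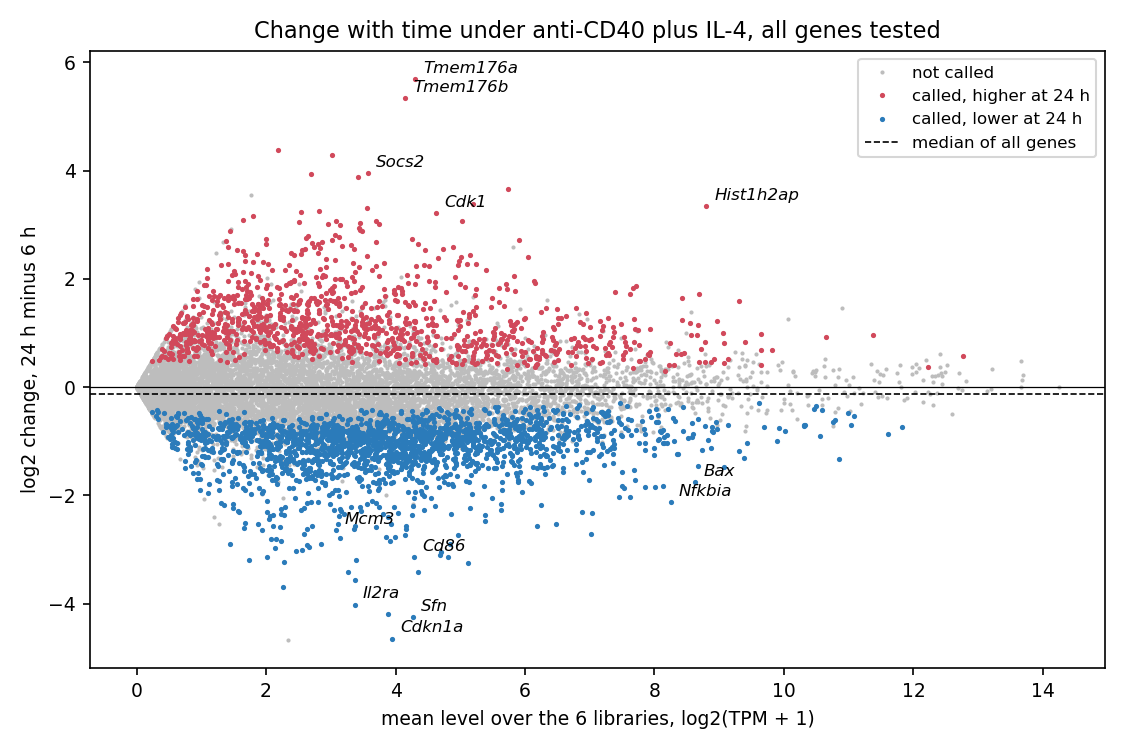
Log2 change from 6 h to 24 h under anti-CD40 plus IL-4 (vertical axis) against the mean level over the 6 libraries, log2(TPM + 1) (horizontal axis), with 1 point for each of the 12147 genes tested. Red points were called higher at 24 h and blue points lower, and the dashed line marks the median of all genes at -0.13. The Tmem176 pair lies at the top and Cdkn1a, Sfn and Il2ra near the bottom.

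The largest rise belonged to a pair of neighbouring genes. Tmem176a (ENSMUSG00000023367, chr6:48840919-48847071 on GRCm38) and Tmem176b (ENSMUSG00000029810, chr6:48833818-48841496), whose annotated ends overlap on opposite strands, encode related membrane proteins best known from dendritic cells. Tmem176a was at 3.02, 1.99 and 0.713 TPM at 6 h and 150.2, 149 and 125 TPM at 24 h, a rise of 5.70 ± 0.32 (adjusted p = 3.42e-11). Tmem176b was at 1.74, 1.3 and 2.38 TPM at 6 h and 173, 107 and 75.5 TPM at 24 h (5.35 ± 0.40, adjusted p = 2.85e-09). Every 24 h library was far above every 6 h library for both, and naive cells held 1.94 ± 0.757 and 5.17 ± 5.32 TPM (mean ± SD, n = 3), close to the 6 h level. Without strand information in the sources used here, reads from the overlapping ends of the pair cannot be told apart.

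Socs2 (ENSMUSG00000020027, chr10:95385362-95417180), a STAT-induced suppressor of cytokine signalling, rose from 2.37, 2 and 1.71 TPM to 42.8, 38.1 and 59.2 TPM (3.96 ± 0.46, adjusted p = 1.5e-06). All 3 libraries at 24 h were above all 3 at 6 h, with naive cells at 0.921 ± 0.915 TPM. Rp2, a regulator of small GTPases, went from 2.05, 0.184 and 0.706 TPM to 28.5, 35.7 and 42 TPM (4.29 ± 0.44). Man1a, a mannosidase that trims glycans in the Golgi, went from 3.87, 1.56 and 0.763 TPM to 77.5, 38.5 and 21.8 TPM (3.88 ± 0.64), with library 1 highest at 24 h. Arhgap15, which turns off the GTPase Rac, was at 1.98, 3.38 and 3.05 TPM and then 22.8, 44.9 and 46.8 TPM (3.32 ± 0.24).

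The other large rises were genes of DNA replication and chromatin. Pclaf, a partner of the replication clamp PCNA, was at 9.68, 13.6 and 20.4 TPM at 6 h and 163, 185 and 221 TPM at 24 h (3.66 ± 0.23, adjusted p = 2.13e-10). Hells, a chromatin remodeller needed for DNA methylation, rose from 9.71, 12.5 and 9.05 TPM to 93.3, 122 and 142 TPM (3.39 ± 0.40). The histone H2A gene Hist1h2ap went from 131, 137 and 146 TPM to 1239, 1464 and 1556 TPM (3.35 ± 0.14, adjusted p = 2.07e-13), the most abundant of the 24. Its H2A relatives Hist1h2ai (3.94 ± 0.60), Hist1h2ag (3.26 ± 0.71) and Hist1h2ah (3.23 ± 0.65) reached 12.3 to 35.5 TPM at 24 h from 0 to 3.58 TPM. These H2A genes are nearly identical in sequence, so their reads can be split between copies, and most histone transcripts lack the poly(A) tail that the libraries selected.

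**Figure D2:**
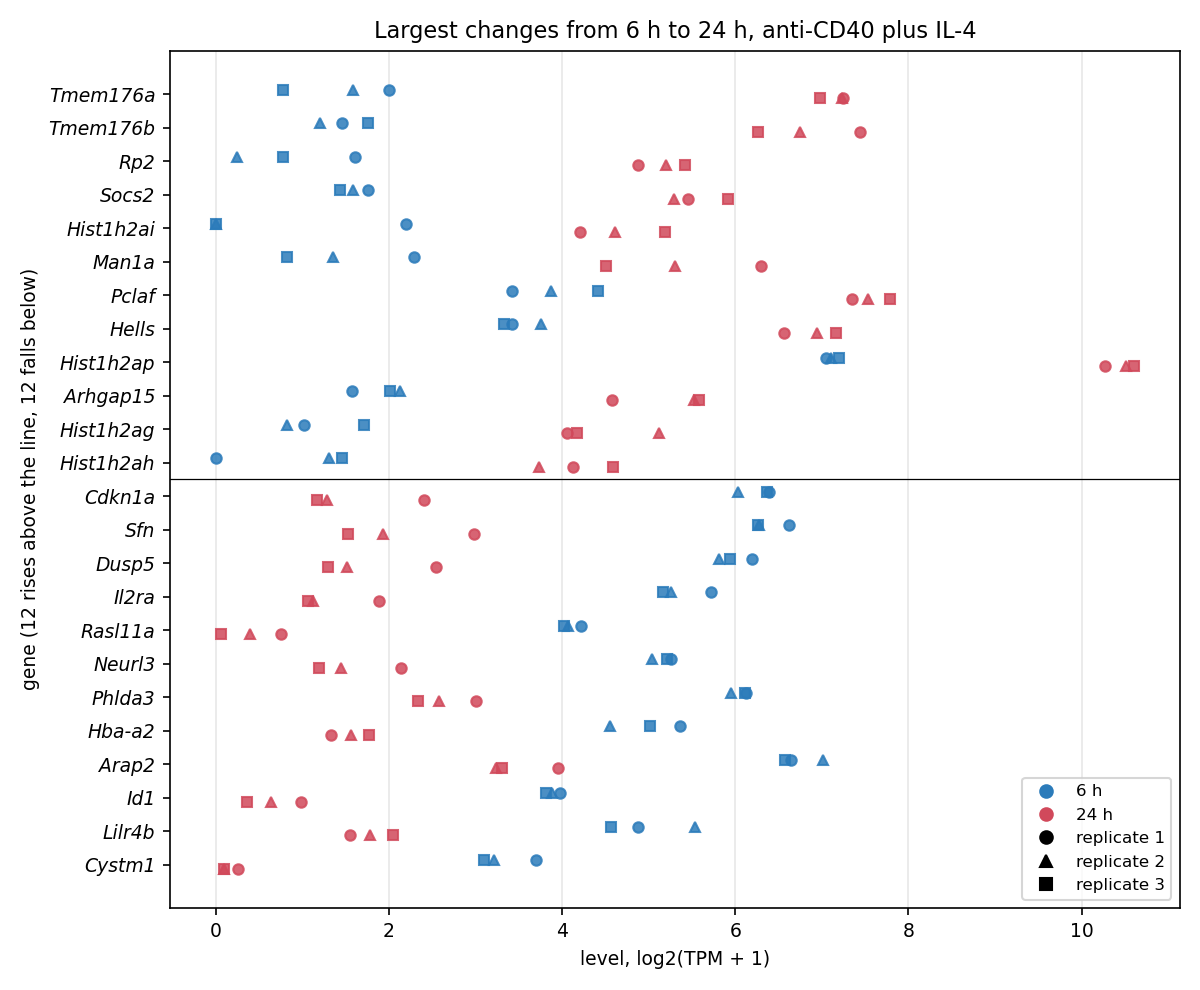
Level of the 12 genes with the largest rises (above the line) and the 12 with the largest falls (below it) in each library, log2(TPM + 1). Blue marks are 6 h, red marks 24 h, and the shape gives the replicate number. The absence of overlap was part of how these genes were chosen. Among the falls library 1 at 24 h (circles) is usually the highest of its group, for example in Cdkn1a at 4.32 TPM against 1.43 and 1.24 TPM.

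The deepest fall was that of Cdkn1a (ENSMUSG00000023067, chr17:29090976-29100727), which encodes p21, an inhibitor of cyclin-dependent kinases and the best known target of p53. It was at 83, 64.6 and 81.8 TPM at 6 h and 4.32, 1.43 and 1.24 TPM at 24 h, a difference of -4.65 ± 0.25 (adjusted p = 1.98e-11). Naive cells held 0.978 ± 0.122 TPM, so the high level was seen at 6 h alone among these 3 groups. Sfn, the 14-3-3 sigma protein that holds cells at G2, went from 97.7, 76.7 and 76 TPM to 6.92, 2.81 and 1.87 TPM (-4.25 ± 0.31, adjusted p = 2.22e-09). Phlda3, a p53-induced repressor of AKT, went from 68.5, 61 and 67.9 TPM to 7, 4.99 and 4.05 TPM (-3.42 ± 0.23), against 0.214 ± 0.0931 TPM in naive cells. In all 3 genes library 1 was the highest at 24 h.

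Signalling genes made up much of the rest. Il2ra, the alpha chain of the IL-2 receptor, fell from 51.7, 37.2 and 34.8 TPM to 2.7, 1.18 and 1.09 TPM (-4.02 ± 0.22, adjusted p = 3.38e-11), with naive cells at 0.739 ± 0.160 TPM. The ERK phosphatase gene Dusp5 fell from 72, 55.2 and 60.4 TPM to 4.82, 1.86 and 1.46 TPM (-4.20 ± 0.28). Neurl3, a ubiquitin ligase gene, fell by 3.57 ± 0.26 and the small GTPase gene Rasl11a by 3.70 ± 0.23. Arap2, an ARF GTPase-activating protein gene, fell from 99.1, 128 and 94.2 TPM to 14.5, 8.43 and 8.92 TPM (-3.24 ± 0.20). Id1, which blocks basic helix-loop-helix factors, fell from 14.7, 13.7 and 13.1 TPM to 0.975, 0.559 and 0.283 TPM (-3.23 ± 0.27). The immunoglobulin-like receptor gene Lilr4b fell from 28.4, 45.5 and 22.7 TPM to 1.92, 2.43 and 3.13 TPM (-3.20 ± 0.27). Cystm1, a small membrane protein gene, was at most at 0.193 TPM in any 24 h library after 7.58 to 12 TPM at 6 h (-3.19 ± 0.26).

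The remaining gene of the 12 was Hba-a2, an alpha globin of red blood cells, at 39.99, 22.5 and 31.3 TPM at 6 h and 1.52, 1.96 and 2.41 TPM at 24 h (-3.42 ± 0.53). Markers of erythroid cells and platelets, 9 in number and 8 of them at 1 TPM or more in some library, summed to 162, 104 and 146 TPM at 6 h and 14.6, 21.3 and 23.2 TPM at 24 h, and 6 of 9 fell. Macrophage and monocyte markers summed to 9.9 to 12.2 TPM at 6 h and 2.22 to 3.93 TPM at 24 h, and 3 of 8 tested fell. T cell markers summed to 1.06 to 2.4 TPM and NK cell markers to 0.201 to 1.17 TPM over the 6 libraries, and 8 of 9 neutrophil markers, S100a8 and S100a9 among them, were at 0 in all 6. Dendritic cell markers, mostly Bst2, which activated B cells also express, summed to 50.3 to 102 TPM and then 34.5 to 58.8 TPM. B cell markers summed to 1305 to 2171 TPM at 6 h and 1843 to 2446 TPM at 24 h, so the labelled cell type was present throughout. Summed levels of red blood cell, platelet and macrophage markers were thus higher in every 6 h library than in any 24 h library, and their part in the other results was not tested.

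Genes of the cell cycle rose together. Of 25 S phase and DNA replication genes tested, 19 rose and 2 fell, with a median of 1.51, or 1.65 above the median of all genes. Of 20 genes of G2 and mitosis, 13 rose and none fell (median 1.21). These counts were 17 and 10 rises without library 1 at 24 h, 19 and 16 after rescaling, and 14 and 6 in the fit to the 6 libraries alone. In the S phase list, Tk1, the thymidine salvage kinase, rose from 1.89, 2.43 and 2.18 TPM to 27.4, 18 and 16 TPM (2.73 ± 0.20). The cyclin E genes, which drive entry into S phase, moved with them: Ccne2 was at 4, 3.03 and 2.17 TPM and then 18.8, 33.6 and 38.9 TPM (2.91 ± 0.29), and Ccne1 at 1.26, 1.38 and 1.43 TPM and then 20.9, 7.49 and 6.57 TPM (2.25 ± 0.32). At each of these genes the times did not overlap.

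The 2 exceptions in the S phase list both license replication origins. Mcm3, a subunit of the replicative helicase, was at 18.2, 20.6 and 22 TPM at 6 h but 14.7, 0.377 and 0.795 TPM at 24 h (-2.65 ± 0.60, adjusted p = 0.00279). Libraries 2 and 3 were below 1 TPM while library 1 was close to the 6 h level, and the smaller fit did not call it (adjusted p = 0.147). Other subunits of the same helicase, Mcm2, Mcm4, Mcm5 and Mcm7, were called higher. Cdt1, which loads the helicase, was at 43.6, 37 and 39.3 TPM and 42.5, 15.8 and 11.4 TPM (-0.97 ± 0.33, adjusted p = 0.034), with library 1 at the 6 h level. That call ended in 5 of 6 fits that left out 1 library, in the smaller fit and without the filter on low values.

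In the mitotic list, Cdk1 (ENSMUSG00000019942), the kinase that starts mitosis, was at 6.41, 8 and 6.92 TPM at 6 h and 58.9, 70.8 and 97.5 TPM at 24 h (3.22 ± 0.27, adjusted p = 1.15e-08). Bub1, a spindle checkpoint kinase, rose from 1.32, 1.47 and 1.29 TPM to 12.8, 14.3 and 18.4 TPM (2.76 ± 0.24), and Kif11, the motor that separates spindle poles, from 2.15, 2.56 and 3.35 TPM to 22, 18.5 and 23.6 TPM (2.61 ± 0.21). Their 24 h libraries all lay above their 6 h libraries. Mki67, the proliferation marker Ki-67, was at 3.09, 3.63 and 3.24 TPM and then 27.5, 9.06 and 6.92 TPM (1.61 ± 0.35, adjusted p = 0.00167). Library 1 carried much of that rise, which was 1.05 without it, and the smaller fit did not call it (adjusted p = 0.128). Ccnb1, the cyclin partner of Cdk1 in mitosis, was at 1.26, 0.732 and 2.69 TPM and 5.27, 2.94 and 6.39 TPM and missed the threshold (1.22 ± 0.46, adjusted p = 0.0546), which it passed after rescaling (1.51, adjusted p = 0.0194). Naive cells held 9.88 ± 3.55 TPM of Cdk1, so the 6 h level was not above the resting level.

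Because these lists moved together, the letters known to recruit cell cycle factors were searched in the 250 bases upstream of the start of each gene, on both strands, in the RefSeq promoters of GRCm38.p6. The CCAAT box, CCAAT, was found in 13 of 15 mitotic genes with a window (86.7%) and in 41.5% of the 8438 tested genes with one. It was also found in 13 of 20 S phase genes (65%) and in 7 of 11 p53 targets (63.6%), a list that fell. The CHR element, TTTGAA, was found in 5 of 15 (33.3%) against 13.2%. An E2F word, any of TTTCCCGC, TTTCGCGC, TTTGCCGC and TTTGGCGC, was found in 6 of 20 S phase genes (30%) against 4.21%. A match is a description of letters and not of binding, and its bearing on the changes with time was not tested. The stretches below show Cdk1 and Kif11, which hold both mitotic elements, Bub1, which holds CCAAT boxes on both strands but no CHR in this window, and Cdc6, which holds an E2F word. Cdk1 holds an E2F word too, TTTCGCGC near the start of its stretch, left in lower case. Capitals mark the CCAAT box (ATTGG on the other strand) and CHR (TTCAAA on the other strand) in the mitotic genes and the E2F word (GCGGGAAA on the other strand) in Cdc6, all written 5′ to 3′ along the gene.
Cdk1 (chr10:69352920-69353047, minus strand): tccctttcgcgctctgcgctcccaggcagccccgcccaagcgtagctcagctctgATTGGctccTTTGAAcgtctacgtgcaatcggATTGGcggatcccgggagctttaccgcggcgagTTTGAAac
Kif11 (chr19:37376322-37376374, plus strand): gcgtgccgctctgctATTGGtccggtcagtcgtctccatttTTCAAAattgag
Bub1 (chr2:127831889-127831939, minus strand): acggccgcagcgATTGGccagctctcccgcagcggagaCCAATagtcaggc
Cdc6 (chr11:98907991-98908041, plus strand): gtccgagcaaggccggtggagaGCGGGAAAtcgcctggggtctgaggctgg
Cdc6, a helicase loader that was picked for its sequence after its values were seen, was at 0.873, 1.21 and 1.29 TPM and then 15.4, 5.47 and 2.96 TPM (1.82 ± 0.36, adjusted p = 0.000872), and the smaller fit did not call it (adjusted p = 0.109).

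Targets of p53 fell almost without exception. Of 12 tested, 11 fell, none rose and 1 was not called, with a median of -1.72, and 7 were called in the fit to the 6 libraries alone. Beside Cdkn1a and Phlda3 these included Bbc3, the killer protein PUMA, at 18.8, 12.2 and 6.56 TPM and then 2.63, 0.173 and 0.273 TPM (-2.84 ± 0.53, adjusted p = 0.000443). Bax, which opens the mitochondrial outer membrane in apoptosis, was among the most abundant members, at 695, 729 and 748 TPM at 6 h and 248, 196 and 199 TPM at 24 h (-1.76 ± 0.14, adjusted p = 5.96e-09). Naive cells held 116 ± 27.3 TPM of Bax, below both times. Sesn2, a stress-induced regulator of growth, fell from 11.4, 10.5 and 10.2 TPM to 5.13, 1.93 and 1.71 TPM (-1.68 ± 0.27), a call that the smaller fit did not make (adjusted p = 0.0647). The member not called was Sesn1, at 13, 14.8 and 12.1 TPM and 13.5, 13.2 and 13.8 TPM (0.03 ± 0.15, adjusted p = 0.925), named after its value was seen because it was the exception. It was called higher (0.59) once values were rescaled and library 1 at 24 h was left out.

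Of 10 pro-apoptotic and death receptor genes, 5 fell and 1 rose, and 3 fell in the smaller fit. Bbc3 and Bax are among the 5 and were already counted as p53 targets. Pmaip1, the protein NOXA, went from 18.9, 23.9 and 25 TPM to 4.76, 4.72 and 2.95 TPM (-2.21 ± 0.20), and Bcl2l11, the protein BIM, from 9.44, 9.63 and 9.59 TPM to 4.75, 2.54 and 1.36 TPM (-1.54 ± 0.23), which the smaller fit did not call (adjusted p = 0.0773). The exception was Bad, a BH3-only protein controlled by AKT, which rose from 8.24, 7.62 and 7.99 TPM to 20.03, 22.3 and 17.4 TPM (1.22 ± 0.18, adjusted p = 2.85e-05). Of 12 anti-apoptotic genes, 1 rose and 3 fell, and the smaller fit called none.

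The feedback and adhesion genes that CD40 drives through NF-kB were lower at 24 h. Of 18 in the list, 13 fell and 1 rose (median -1.02, or 0.89 below the median of all genes), with the same counts after rescaling but 2 falls in the fit to the 6 libraries alone. Nfkbia, the inhibitor IkB-alpha that NF-kB itself induces, was at 631, 632 and 635 TPM at 6 h and 259, 129 and 90.3 TPM at 24 h (-2.12 ± 0.23, adjusted p = 6.9e-07). The 3 libraries at 6 h were within a few TPM of each other, and those at 24 h spread widely below them. Bcl3, a co-factor of NF-kB p50 and p52, fell from 115, 82.5 and 95.6 TPM to 41.3, 12.3 and 8.71 TPM (-2.47 ± 0.35), and Traf1, a TRAF adaptor induced by CD40, from 100.2, 86.7 and 83.8 TPM to 37.6, 24.9 and 9.75 TPM (-2.04 ± 0.29). The smaller fit called neither (adjusted p = 0.0585 and 0.0619). Rel, the c-Rel subunit of NF-kB, fell from 62.7, 71.4 and 56.6 TPM to 31.9, 18.5 and 15.3 TPM (-1.56 ± 0.21, adjusted p = 1.37e-05).

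The NF-kB word GGG, then any 2 letters, then TTTCC, was searched on either strand. It was found in 5 of 13 genes of this list with a window (38.5%) and in 1.91% of all tested genes with one. The 5 were Nfkb2, Nfkbia, Rel, Tnfaip3 and Traf3. The list was chosen as genes driven through NF-kB, so a high share may follow from the choice. Its bearing on the fall with time was not tested. Nfkbia and Rel, the latter named after its values were seen, are shown because both transcripts fell and both windows hold the word on the opposite strand, in capitals.
Nfkbia (chr12:55492657-55492707, minus strand): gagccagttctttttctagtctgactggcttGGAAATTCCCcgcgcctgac
Rel (chr11:23771034-23771084, minus strand): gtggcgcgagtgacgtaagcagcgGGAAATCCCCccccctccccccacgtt
The first letters of the Rel match overlap an E2F word of the list above.

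Early transcription factor genes also declined. Of 17 immediate early genes, 11 fell and none rose (median -0.97), 14 without library 1 at 24 h and 3 in the fit to the 6 libraries alone. The orphan receptor genes Nr4a1 and Nr4a3, which antigen and CD40 signals induce rapidly, fell from 14.2, 11 and 7.89 TPM to 1.48, 0.387 and 0.360 TPM (-2.81 ± 0.28) and from 5.27, 6.72 and 4.93 TPM to 0.722, 0.129 and 0.246 TPM (-2.30 ± 0.18). Zfp36, which degrades cytokine transcripts, fell from 47.1, 40.3 and 40.6 TPM to 23.6, 7.11 and 5.25 TPM (-2.02 ± 0.32), with library 1 between the groups and no call in the smaller fit (adjusted p = 0.0819). Egr1 was at 4.82, 5.23 and 4.78 TPM and 6.69, 1.95 and 1.67 TPM and was not called (-0.60 ± 0.29, adjusted p = 0.143). Library 1 was above the 6 h libraries and the other two were below them, and without library 1 Egr1 was called lower (-1.08).

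Genes of the resting state were lower at 24 h. Of 15 quiescence genes, 9 fell and none rose (median -1.09), and 4 fell in the fit to the 6 libraries alone. Ccr7, the chemokine receptor that guides B cells to T cell zones, was at 146, 65.4 and 42.8 TPM at 6 h and 17, 6.26 and 4.16 TPM at 24 h (-3.10 ± 0.51, adjusted p = 0.000131). Btg1, an antiproliferative gene, was at 243, 250.2 and 293 TPM and then 104, 41.9 and 32.2 TPM (-2.30 ± 0.27), against 537 ± 151 TPM in naive cells, and its relative Btg2 fell by 1.95 ± 0.27. Klf2, which keeps lymphocytes quiescent, was at 528 ± 205 TPM in naive cells, 73.5, 56.1 and 54.4 TPM at 6 h and 38.6, 13 and 10.6 TPM at 24 h (-1.73 ± 0.32). Foxo1, a factor that AKT shuts out of the nucleus, went from 18.4, 17 and 21.2 TPM to 11.1, 3.95 and 2.48 TPM (-1.74 ± 0.30). The times did not overlap for these 5 genes, but the calls of Klf2 and Foxo1 were not made by the smaller fit (adjusted p = 0.0972 and 0.0996). The list of G1 cyclins and CDK inhibitors does not hold the cyclin E genes, which rose. In it 5 of 13 fell, Cdkn1a among them, and none rose. After rescaling 6 fell and 3 rose, and the smaller fit called 1 fall. Ccnd2, the cyclin D2 of B cells, was at 34.3, 32.1 and 62 TPM and 105, 54.4 and 27.9 TPM (0.40 ± 0.59, adjusted p = 0.675), a difference that was -0.07 without library 1 at 24 h.

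**Figure D3:**
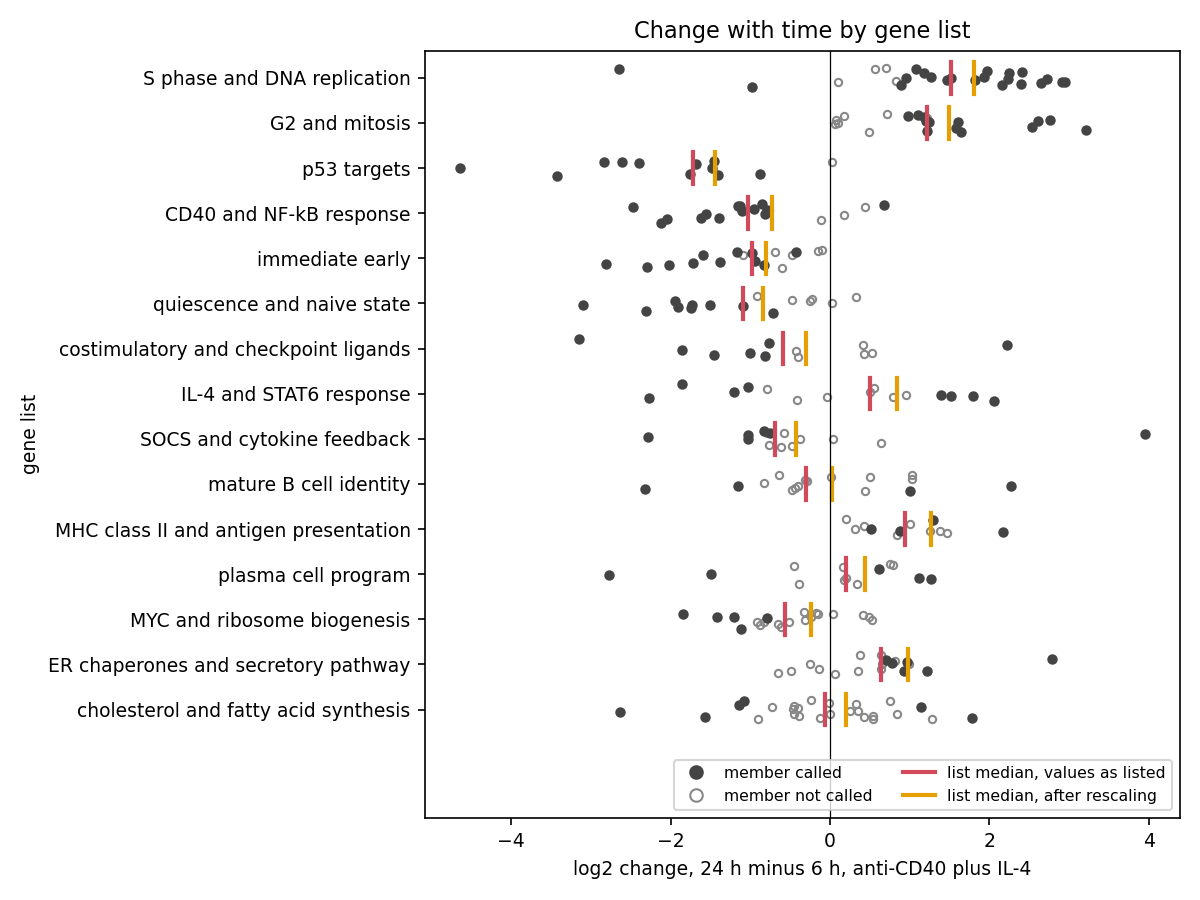
Log2 change from 6 h to 24 h of every tested member of 15 gene lists (points, filled where called). Red bars are the list medians with values as listed, which the points show too. Orange bars are the list medians after median-of-ratios rescaling, each further to the right. The S phase median lies at 1.51 and the p53 median at -1.72 with values as listed.

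The targets of IL-4 itself did not move as one group. Of 15 IL-4 and STAT6 response genes, 4 rose and 4 fell (median 0.50), 6 and 4 after rescaling, and the smaller fit called 1 fall. The rises were the germline transcripts and chemokines. Ighg1, the IgG1 constant region, was at 22.5, 25.9 and 32.9 TPM at 6 h and 250.1, 96.9 and 62 TPM at 24 h (2.06 ± 0.42, adjusted p = 0.00115), and Ighe, the IgE constant region, at 4.03, 5.01 and 5.63 TPM and 43.1, 14.6 and 11.2 TPM (1.80 ± 0.30, adjusted p = 0.000163). Both were near 0 in naive cells, at 2.91 ± 1.48 and 0.171 ± 0.0882 TPM, and library 1 was highest at 24 h. Ccl17 and Ccl22, which attract T cells through CCR4, were at 3.19, 2.55 and 5.09 TPM and then 8.43, 13.9 and 14 TPM (1.51 ± 0.23) and at 49.7, 42.2 and 46.4 TPM and then 309, 96.6 and 61.5 TPM (1.40 ± 0.36). Ccl22 changed by 0.73 without library 1, and Ccl17 lost its call with a pseudocount of 0.1 (adjusted p = 0.079). The smaller fit called none of these 4 (adjusted p = 0.0737, 0.104, 0.0652 and 0.196).

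The falls were Bcl6, Mapkapk3, Stat6 and Cish. Bcl6, the master repressor of germinal centre B cells, fell from 17.6, 17.6 and 16.1 TPM to 5.84, 2.29 and 1.35 TPM (-2.27 ± 0.25, adjusted p = 8.66e-07), with naive cells at 21.5 ± 1.57 TPM. Mapkapk3, a kinase below p38, fell from 44, 37.4 and 41.8 TPM to 21, 9.43 and 5.83 TPM (-1.85 ± 0.29), which the smaller fit did not call (adjusted p = 0.0666). Cish, a STAT-induced feedback gene, was at 94.3, 80.9 and 105 TPM and 88.2, 37.1 and 27.7 TPM (-1.03 ± 0.31, adjusted p = 0.0172). Its library 1 lay within the 6 h range, and the call ended without any 1 of 3 other libraries, with a pseudocount of 0.1 and in the smaller fit. The receptor gene Il4ra was at 105, 54.1 and 29.9 TPM and 178, 91.9 and 79.4 TPM and was not called (0.96 ± 0.45, adjusted p = 0.126), though it was after rescaling (1.29, adjusted p = 0.0159). Fcer2a, which encodes CD23, was at 1299.7, 492 and 305 TPM at 6 h and 1676, 719.7 and 461 TPM at 24 h (0.50 ± 0.58, adjusted p = 0.578), and the groups overlapped.

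Words of the STAT type, TTC and GAA with any 4 or any 3 letters between them, read the same on both strands. The word with 4 was found in 3 of 13 genes of the IL-4 list with a window (23.1%, Ccl17, Fcer2a and Mapkapk3) against 5.81% of tested genes with one. The word with 3 was found in 2 of 13 (15.4%) against 7.32%. Ccl17 is shown because its window holds both, in capitals. The match with 3 also contains a CHR word.
Ccl17 (chr8:94810283-94810373, plus strand): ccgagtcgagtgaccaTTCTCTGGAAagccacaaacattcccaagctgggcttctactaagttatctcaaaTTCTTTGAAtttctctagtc

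Feedback genes of the SOCS type split. Of 14 suppressor and phosphatase genes, Socs2 alone rose and 5 fell. Without library 1 at 24 h 9 fell, after rescaling 2 rose and 4 fell, and the smaller fit called Socs2 and 1 fall. Socs3, which limits STAT3, went from 53.3, 48 and 40.8 TPM to 14.4, 7.45 and 6.47 TPM (-2.28 ± 0.27, adjusted p = 2.57e-06), and Socs5 from 7.32, 7.17 and 6.25 TPM to 4.48, 2.56 and 1.96 TPM (-1.03 ± 0.26), which the smaller fit did not call (adjusted p = 0.129). Socs1, a feedback inhibitor of JAK kinases, was at 42.1, 31.4 and 32.1 TPM and 39.2, 15.2 and 12.8 TPM (-0.79 ± 0.32, adjusted p = 0.0733). Library 1 was at the 6 h level, and without it Socs1 was called lower (-1.26).

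Of 16 genes of B cell identity, 2 rose and 2 fell. This count depended on the libraries and the scaling: 2 rose and 8 fell without library 1 at 24 h, 5 rose and 2 fell after rescaling, and the smaller fit called 1 fall. Cr2, the complement receptor CD21 of mature B cells, was at 326 ± 47.6 TPM in naive cells, 45.2, 43.2 and 23.3 TPM at 6 h and 12.8, 5.03 and 3.76 TPM at 24 h (-2.32 ± 0.31, adjusted p = 1.04e-05). Cd22, an inhibitory co-receptor, was at 29, 10.9 and 9.57 TPM and then 154, 58.4 and 45.8 TPM (2.28 ± 0.48), and Ms4a1, the gene for CD20, at 353, 409 and 366 TPM and then 506, 873 and 962 TPM (1.00 ± 0.19). Neither Cd22 nor Ms4a1 was called by the smaller fit (adjusted p = 0.0826 and 0.0969). Pax5, the factor that fixes B cell identity, was at 41.5, 37.4 and 50.9 TPM and 55.6, 19.2 and 12.3 TPM (-0.82 ± 0.38, adjusted p = 0.114). Library 1 was above the 6 h libraries and the other two were below, and without library 1 Pax5 was called lower (-1.42).

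The plasma cell program was mixed too, with 3 rises and 2 falls among 13 genes, 6 and 2 after rescaling and 1 of each in the smaller fit. Slamf7, a surface receptor of activated B and plasma cells, rose from 70.5, 57.8 and 51.9 TPM to 150.2, 150.3 and 136 TPM (1.27 ± 0.17, adjusted p = 1.28e-05), and Mzb1, a chaperone for antibody assembly, from 293, 259 and 266 TPM to 338, 447 and 483 TPM (0.62 ± 0.14), which the smaller fit did not call (adjusted p = 0.129). Jchain, which joins IgM and IgA into polymers, fell from 29, 30.4 and 57.2 TPM to 2.44, 5.57 and 6.56 TPM (-2.78 ± 0.42, adjusted p = 4.96e-05). Irf4, a dose-dependent factor of B cell fate, was at 79.4, 74.8 and 78.7 TPM and 58.4, 22.4 and 14.7 TPM (-1.49 ± 0.33), also not called in that fit (adjusted p = 0.13). Prdm1, which encodes the plasma cell factor Blimp-1, stayed under 1 TPM in all 6 libraries, at 0.601, 0.324 and 0.350 TPM and 0.269, 0 and 0 TPM (-0.39 ± 0.21, adjusted p = 0.19). It was called lower with a pseudocount of 0.1 (-1.73, adjusted p = 0.0307) and with library weights (-0.49, adjusted p = 0.00807). Xbp1, the factor of the secretory response, was at 7.08, 7.02 and 2.28 TPM and 10.7, 7.34 and 10.3 TPM (0.79 ± 0.37, adjusted p = 0.117), and was called higher after rescaling (1.11, adjusted p = 0.0132). Iglc3, a lambda light chain constant gene with close copies, rose from 366, 403 and 329 TPM to 882, 1098 and 1361 TPM (1.58 ± 0.20), as 1 of 5 rises among 13 immunoglobulin constant genes, of which the smaller fit called 2. In the 12 germinal centre genes tested, Bcl6 included, 3 fell and none rose, and the smaller fit called 1 fall.

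Antigen presentation and costimulation went different ways. Of 12 MHC class II pathway genes, 4 rose and none fell (median 0.94), and 9 rose after rescaling. H2-Oa, a subunit of the peptide-loading regulator H2-O, rose from 33.6, 16.6 and 12.1 TPM to 140.3, 81.9 and 61 TPM (2.17 ± 0.36, adjusted p = 0.000121), and H2-Eb2 from 22.7, 16.3 and 11.2 TPM to 45.3, 43.5 and 35 TPM (1.30 ± 0.24). Ciita, the activator of the class II genes, was at 26.8, 22 and 22.2 TPM and 87, 38.3 and 25.7 TPM (0.88 ± 0.32, adjusted p = 0.0451), and its call ended without any 1 of 5 of the 6 libraries (0.40 without library 1 at 24 h). The fit to the 6 libraries alone called no gene of this list (adjusted p = 0.051, 0.063 and 0.264 for these 3).

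Of 12 costimulatory and checkpoint ligands, 6 fell and 1 rose, against 5 falls and 4 rises after rescaling and 3 falls and 1 rise in the smaller fit. Cd86, the B7-2 ligand that costimulates T cells through CD28, was at 55.6, 62.7 and 52.8 TPM at 6 h and 4.31, 6.52 and 6.03 TPM at 24 h (-3.14 ± 0.21, adjusted p = 6.49e-10), against 10.8 ± 0.511 TPM in naive cells. Every 24 h library was therefore below the naive mean as well as below every 6 h library. Its relative Cd80 went from 6.47, 7.97 and 4.62 TPM to 1.38, 1.66 and 1.91 TPM (-1.45 ± 0.21), and the early activation marker gene Cd69 from 316, 421 and 323 TPM to 68.8, 97.2 and 132 TPM (-1.86 ± 0.21). Cd83, which keeps MHC class II and CD86 at the surface, went from 1491, 1481 and 1167 TPM to 704, 784 and 866 TPM (-0.81 ± 0.14), a call lost after rescaling (-0.47, adjusted p = 0.146) and in the smaller fit (adjusted p = 0.0674). The rise was that of Slamf1, a self-ligand receptor of lymphocytes, from 3.32, 2.46 and 1.96 TPM to 23.2, 13.5 and 11.7 TPM (2.22 ± 0.27, adjusted p = 2.71e-06).

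Among 14 cytokine and chemokine genes, 6 fell and 2 rose, the latter Ccl17 and Ccl22, and the smaller fit called 1 fall. Ccl4, a T cell-attracting chemokine, was at 4.7, 6.28 and 6.25 TPM and then 0.396, 0.374 and 0.284 TPM (-2.31 ± 0.33). Of 16 interferon-stimulated genes, 6 fell and 2 rose, or 2 and 1 in the smaller fit. Isg15, a ubiquitin-like modifier, went from 19.5, 16 and 19.4 TPM to 4.21, 4.36 and 1.32 TPM (-2.26 ± 0.26). In the GIMAP family of lymphocyte GTPases, 2 of 8 rose and 2 fell, 3 and 1 after rescaling, 1 and 3 without library 1 at 24 h and 1 and 0 in the smaller fit. Gimap7 rose from 11, 10.6 and 10.6 TPM to 21.2, 25 and 24.2 TPM (1.06 ± 0.15) while Gimap3 was at 88.5, 77.3 and 87.5 TPM and 69, 30.6 and 26 TPM (-1.13 ± 0.28), which the smaller fit did not call (adjusted p = 0.138).

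Called growth and stress genes were mostly lower at 24 h, as were called genes in general, of which only 34.6% were higher. Among all genes tested, 16.6% were called lower. Of 20 MYC and ribosome biogenesis genes, 5 fell and none rose (median -0.57), with 10 falls and 2 rises without library 1 at 24 h and 1 fall in the smaller fit. Myc itself was at 113, 131 and 119.8 TPM and 101, 39.1 and 22.5 TPM (-1.42 ± 0.34, adjusted p = 0.0043), with library 1 nearest to the 6 h values and no call in the smaller fit (adjusted p = 0.161). Odc1, the MYC target that starts polyamine synthesis, fell from 488, 468 and 509 TPM to 202, 121 and 99.9 TPM (-1.85 ± 0.20, adjusted p = 4.73e-07). In the list of amino acid and ATF4 genes, 6 of 20 fell and none rose (9 fell without library 1 at 24 h and 2 in the smaller fit), among them the pseudokinase gene Trib3, from 6.34, 5.83 and 6.7 TPM to 2.21, 1.2 and 0.914 TPM (-1.61 ± 0.23), and Chac1, which breaks down glutathione, by 1.43 ± 0.22. Of 17 cytosolic chaperone genes, 7 fell and 2 rose, while 10 fell and 2 rose without library 1 at 24 h and the smaller fit called 1 fall. The heat shock gene Hspa1a went from 3.47, 1.53 and 1.46 TPM to 0.256, 0.0841 and 0.161 TPM (-1.38 ± 0.30).

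Lipid synthesis genes did not move together: 4 of 26 fell and 2 rose, with 10 falls and 2 rises without library 1 at 24 h, 4 falls and 6 rises after rescaling and 1 of each in the smaller fit. Msmo1, a sterol oxidase of the cholesterol pathway, fell from 38.9, 34.3 and 60.9 TPM to 8.95, 2.75 and 8.85 TPM (-2.63 ± 0.44), and Hmgcs1, the synthase near the start of that pathway, was at 187, 201 and 223 TPM and 132, 57.4 and 41 TPM (-1.57 ± 0.30). Acaca, the first enzyme of fatty acid synthesis, rose from 0.170, 0.491 and 0.0651 TPM to 6.23, 2 and 2.48 TPM (1.78 ± 0.39). Of 18 endoplasmic reticulum chaperone and secretory genes, 6 rose and none fell (median 0.65, and 10 rises after rescaling). Sdf2l1, a partner of the chaperone BiP, went from 112, 87.2 and 80.8 TPM to 312, 194 and 166 TPM (1.22 ± 0.26). The calls of Hmgcs1, Sdf2l1 and Chac1 were not made in the fit to the 6 libraries alone (adjusted p = 0.0933, 0.0649 and 0.0583), and no endoplasmic reticulum gene was. In class switching and repair, 4 of 17 rose and 1 fell, 10 rose and none fell after rescaling, and the smaller fit called 1 rise. Rpa2 and Rpa3, subunits of the protein that coats single-stranded DNA, were at 0.475, 0.736 and 1.27 TPM and 5.52, 6.41 and 3.1 TPM (1.70 ± 0.42) and at 46.5, 68.7 and 86.4 TPM and 104, 213 and 274 TPM (1.47 ± 0.31), and the smaller fit called Rpa2 but not Rpa3 (adjusted p = 0.0406 and 0.102). Most glycolysis genes (4 rises in 20), nuclear-encoded respiratory chain genes (2 rises and 3 falls in 28), proteasome genes (5 falls in 25) and MHC class I genes (1 rise in 12) were not called, and the smaller fit called none of them. Without library 1 at 24 h these counts were 2 rises and 6 falls, 8 and 8, 4 and 9, and 1 and 0, and after rescaling 6 and 0, 4 and 1, 1 and 4, and 4 and 0.

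The time change with IL-4 was then set against that with anti-CD40 alone, as the difference of the 2 changes. It was called for 873 genes (7.19%), 257 higher with IL-4 (2.12%) and 616 lower (5.07%), against a median of all genes of -0.32. After rescaling 56.4% of 1680 called genes were higher, where 29.4% were before. A fit to the 12 libraries alone called 198, and 3887 were called without library 1 of the IL-4 group at 24 h. Anti-CD40 alone changed 2950 genes with time (24.3%), 1957 higher (16.1%) and 993 lower (8.17%).

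Pseudogenes aside, Socs2 had the largest called positive difference. With anti-CD40 alone it was at 2.54, 3.27 and 5.3 TPM at 6 h and 3.24, 1.44 and 3.04 TPM at 24 h (-0.39 ± 0.46), so the difference was 4.35 ± 0.65 (adjusted p = 0.000434), and the 24 h libraries with IL-4 stood above all 6 libraries with anti-CD40 alone. Tmem176b rose in both settings, to 11.1 to 14.4 TPM with anti-CD40 alone (2.09 ± 0.40), and more with IL-4 (3.26 ± 0.57, adjusted p = 0.00159). Thy1, a surface glycoprotein best known from T cells that mouse B cells acquire with IL-4, was at 3.65, 1.06 and 1.12 TPM and 46.4, 13.4 and 14.6 TPM with IL-4 (3.01 ± 0.35) but at 0, 0 and 0.0247 TPM and 0.0214, 0.328 and 0 TPM without it (2.88 ± 0.49, adjusted p = 0.00141). The T cell marker list, which does not hold Thy1, summed to at most 2.4 TPM in the IL-4 libraries, as given above. Of its 2 members tested, 1 was called higher at 24 h with IL-4, and the source of the Thy1 transcripts was not tested. Slpi, a secreted protease inhibitor, went from 1.8, 0.788 and 0.417 TPM to 8.41, 5.13 and 4.71 TPM with IL-4 and from 1.73, 0.462 and 1.27 TPM to 0.154, 0 and 0.0708 TPM without it (2.81 ± 0.45, adjusted p = 0.00078). Ighe was at 0.210, 0.264 and 0.804 TPM and 0.213, 0.108 and 0.118 TPM without IL-4 (2.09 ± 0.43, adjusted p = 0.00564), and Ccl17 was at most at 0.337 TPM there (1.40 ± 0.33, adjusted p = 0.0128). The last 2 calls were not made in the fit to the 12 libraries alone (adjusted p = 0.0809 and 0.0769). That of Ccl17 was also lost with a pseudocount of 0.1 and without mitochondrial, ribosomal protein and pseudogene transcripts. Ighe and Ccl17 were the only 2 of the 15 IL-4 and STAT6 response genes with a called positive difference. For Ighg1 and Ccl22, which also rose with IL-4, the difference from anti-CD40 alone was not called.

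Several cell cycle genes rose more with IL-4. With anti-CD40 alone, 14 of 25 S phase genes rose and 1 fell, and 6 of 20 mitotic genes rose and none fell. Of the S phase genes 7 of 25 had a called positive difference and of the mitotic genes 4 of 20, with no negative one in either. Cdk1 went from 6.91, 4.88 and 8.7 TPM to 23.1, 19.3 and 28.2 TPM with anti-CD40 alone, and its difference was 1.55 ± 0.38 (adjusted p = 0.0149), a call that ended without library 3 of the IL-4 group at 24 h. Bub1 differed by 1.43 ± 0.34, Kif11 by 1.37 ± 0.30 and Hist1h2ap by 1.46 ± 0.19 (adjusted p = 0.013, 0.00754 and 0.00011). Of these 4, only Hist1h2ap was also called in the fit to the 12 libraries alone (for Cdk1, Bub1 and Kif11 adjusted p = 0.0536, 0.0516 and 0.0878). Hist1h3a, a histone H3 gene, differed by 2.18 ± 0.58 (adjusted p = 0.0252), and its call ended without any 1 of 4 libraries.

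**Figure D4:**
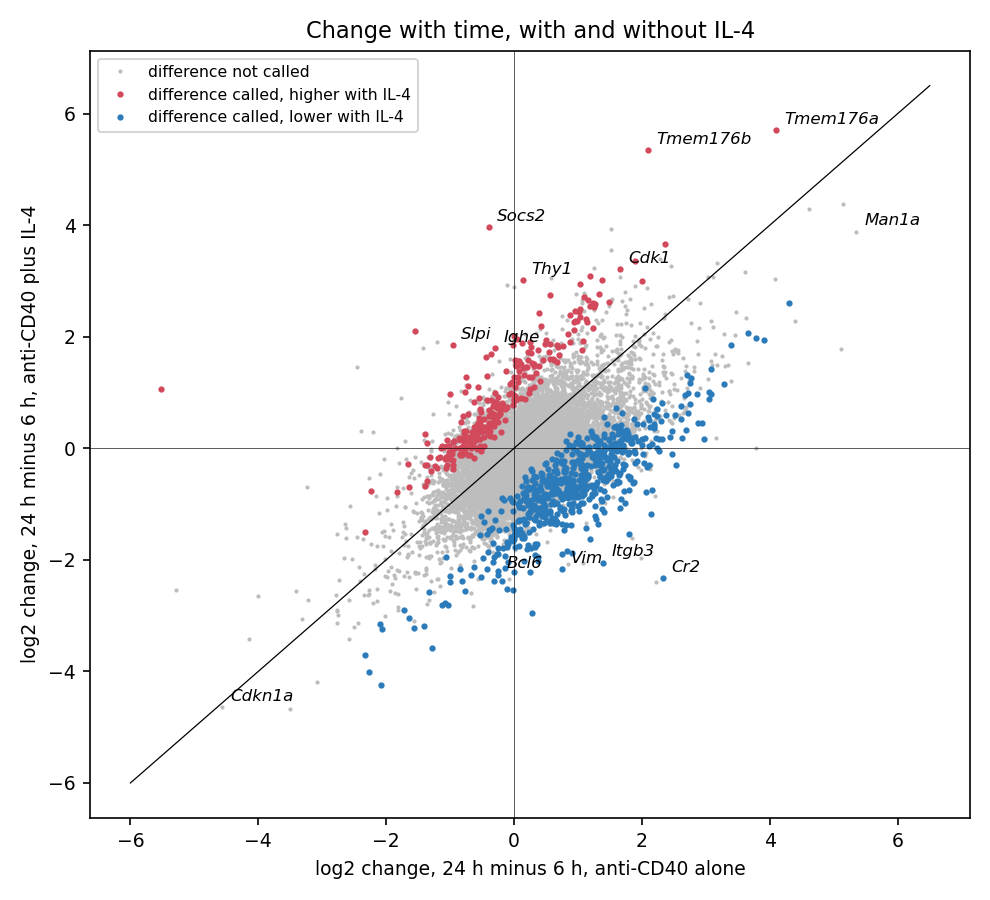
Log2 change from 6 h to 24 h with anti-CD40 plus IL-4 (vertical axis) against that with anti-CD40 alone (horizontal axis), 1 point per gene tested, with the line of equal change. Coloured points have a called difference, red higher and blue lower with IL-4. Socs2 lies far above the line at 3.96 against -0.39, Cr2 far below it at -2.32 against 2.33, and Cdkn1a on it.

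The largest called negative difference was that of Cr2. With anti-CD40 alone it went from 30.9, 26.5 and 23.1 TPM at 6 h to 134, 116 and 171 TPM at 24 h (2.33 ± 0.31, adjusted p = 1.15e-05), a rise where the IL-4 libraries fell, and the difference was -4.66 ± 0.44 (adjusted p = 2.83e-06). The same opposition held for the integrin gene Itgb3, at 2.64, 1.61 and 1.83 TPM and 7.09, 5.14 and 8.84 TPM without IL-4 and 18.2, 8.84 and 6.35 TPM and 3.15, 1.48 and 0.895 TPM with it (-3.44 ± 0.55), and for Trim7, a ubiquitin ligase gene, at 14.4, 10.9 and 12.2 TPM and 44.6, 35.9 and 60.05 TPM without and 9.78, 7.5 and 6.52 TPM and 4.58, 1.09 and 1.41 TPM with it (-3.34 ± 0.50). The falls of Itgb3 and Trim7 with IL-4 were not called in the fit to the 6 libraries alone (adjusted p = 0.0674 and 0.107). Vim, the intermediate filament vimentin, fell from 99.1, 102 and 112 TPM to 45.8, 18.1 and 13.4 TPM with IL-4 and was at 29.2, 31.9 and 35.9 TPM and 48.9, 52.5 and 63.8 TPM without it (-2.91 ± 0.40, adjusted p = 0.000183). Ets1, a lymphocyte transcription factor, differed by -2.90 ± 0.85 (adjusted p = 0.0418), but without IL-4 its 24 h libraries were at 5.95, 0.392 and 10.9 TPM, and the call ended in 10 of the 12 fits that left out 1 library.

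The genes that follow come from the panel and lists, and the lists were chosen with earlier results of these data known. Bcl6 stayed at 20.2, 20.1 and 27.8 TPM at 24 h with anti-CD40 alone after 25.3, 24.9 and 31.1 TPM at 6 h (-2.01 ± 0.36, adjusted p = 0.00178). Foxo1 was at 13.9, 14.2 and 19.8 TPM and 16.6, 16 and 24 TPM there (-1.96 ± 0.43, adjusted p = 0.00805), and Nfkbia at 724, 658 and 749 TPM and 459.9, 398 and 521 TPM (-1.49 ± 0.33, adjusted p = 0.00879). In the quiescence list 6 of 15 and in the NF-kB list 6 of 18 had a called negative difference and none a positive one. Ciita rose from 10.04, 7.71 and 12 TPM to 82.5, 73.9 and 113 TPM with anti-CD40 alone (-2.17 ± 0.45, adjusted p = 0.00573). With anti-CD40 alone all 12 MHC class II genes were called higher with time (median 2.52), against 4 with IL-4 (median 0.94). Of the 12 MHC class II genes, 3 had a called negative difference and none a positive one. The differences of Bcl6, Foxo1, Nfkbia and Ciita were not called in the fit to the 12 libraries alone (adjusted p = 0.0545, 0.0842, 0.0876 and 0.0575). Of the p53 targets, 7 of 12 fell and 1 rose with anti-CD40 alone. Cdkn1a went from 45, 37.9 and 52.6 TPM to 1.22, 0.651 and 0.974 TPM with anti-CD40 alone (-4.57 ± 0.25), and the difference was -0.08 ± 0.35 (adjusted p = 0.917), called lower with library weights alone among the alternatives (-0.52, adjusted p = 0.0296). For Bax the difference was 0.39 ± 0.20 (adjusted p = 0.215), called only after rescaling (0.89) and once transcripts of mitochondria, ribosomal proteins and pseudogenes were dropped.

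The last comparison set IL-4 against IL-21 as the partner of anti-CD40. It uses the same 6 IL-4 libraries as the one before, so the 2 are not independent. The time changes differed for 1867 genes (15.4%), 259 higher with IL-4 (2.13%) and 1608 lower (13.2%), with a median of all genes of -0.45. After rescaling 50.6% of 2004 called genes were higher, where 13.9% were before, so the excess of negative differences depends on scaling. Anti-CD40 with IL-21 changed 4315 genes with time (35.5%), 3185 higher (26.2%) and 1130 lower (9.3%). A fit to the 12 libraries alone called 380, and without library 1 of the IL-4 group at 24 h 4995 were called.

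Several genes with a higher change with IL-4 fell with IL-21. Slamf7 fell from 45.6, 38.1 and 32.4 TPM to 6.63, 7.99 and 6.7 TPM with IL-21 (-2.28 ± 0.17) where it rose with IL-4, a difference of 3.55 ± 0.24 (adjusted p = 6.3e-09). Epb41l4b, a FERM domain protein, went from 19.8, 13.3 and 19.4 TPM to 0.232, 0.258 and 0.260 TPM with IL-21 and was at most at 1 TPM with IL-4 (3.72 ± 0.34, adjusted p = 2.64e-07). Il1a, an inflammatory cytokine, likewise went from 8.11, 8.52 and 8.89 TPM to 0.0368, 0.197 and 0.273 TPM with IL-21, with at most 0.121 TPM in any IL-4 library (2.92 ± 0.25). In these 2 genes the difference came from the IL-21 libraries alone. Socs2 was at 2.09, 5.2 and 0.675 TPM and 0.638, 2.28 and 0.342 TPM with IL-21 (4.68 ± 0.65, adjusted p = 4.56e-05), so its difference was mostly the rise with IL-4. Rgs1, a brake on chemokine receptors, was at 7.92, 13.3 and 10.4 TPM and 11.2, 24.2 and 29.7 TPM with IL-4 and 8.65, 10.3 and 7.68 TPM and 1.85, 0.771 and 2.03 TPM with IL-21 (2.88 ± 0.41, adjusted p = 6.04e-05). Hist1h2ah, which changed by 0.27 ± 0.65 with IL-21 and rose with IL-4, differed by 2.96 ± 0.92 (adjusted p = 0.0338), a call that ended in 7 of the 12 fits that left out 1 library.

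Lower with IL-4 were several genes that IL-21 libraries gained. Scimp, a membrane adaptor, reached 21.6, 27.3 and 30.7 TPM at 24 h with IL-21 and was at most at 1.33 TPM with IL-4 (-4.10 ± 0.31, adjusted p = 1.42e-08). Dok3, an inhibitory adaptor of B cell receptor signalling, was at 78.2, 91.9 and 64.9 TPM at 24 h with IL-21 and 7.41, 3.9 and 3.91 TPM with IL-4 (-4.08 ± 0.40). Pxdc1, a PX domain protein, was at 44.1, 57.1 and 42.4 TPM and 15.5, 5.72 and 5.22 TPM (-3.89 ± 0.53). Vim rose with IL-21 from 55.5, 71.3 and 78.8 TPM to 296, 289 and 228 TPM (-4.14 ± 0.40), and Cr2 from 3.93, 4.23 and 3.98 TPM to 20.2, 30.9 and 20.2 TPM (-4.59 ± 0.44, adjusted p = 4.61e-07), while both fell with IL-4.

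Genes of the panel and lists, the latter chosen with earlier results of these data known, differed too. Bcl6 was at 22.3, 22.4 and 26.2 TPM and 29.6, 36.9 and 23.7 TPM with IL-21 (-2.58 ± 0.36, adjusted p = 4.44e-05), and Klf2 rose there from 21.5, 13.9 and 19.3 TPM to 53.5, 44.8 and 35.2 TPM (-2.98 ± 0.45, adjusted p = 0.000144). Cd86 was kept with IL-21, at 37.6, 49.4 and 31 TPM and 28.4, 23.5 and 38.8 TPM, against the fall with IL-4 (-2.77 ± 0.30, adjusted p = 2.45e-06). The IL-4 targets Ccl17 (1.66 ± 0.33), Ccl22 (1.88 ± 0.50) and Ighe (1.99 ± 0.43) changed more upward with IL-4 and stayed low with IL-21, where Ccl17 was listed at 0 in all 3 libraries at 24 h. Ccl22 differed by 1.22 without library 1 of the IL-4 group at 24 h, and the call of Ccl17 was lost with a pseudocount of 0.1 (adjusted p = 0.0992). Cish fell with IL-21 from 11.2, 9.12 and 12.8 TPM to 1.01, 1.03 and 0.374 TPM, more than with IL-4 (1.72 ± 0.43, adjusted p = 0.0114). Of the mitotic genes, 11 of 20 had a called negative difference and none a positive one. Mki67 reached 58.6, 92.4 and 38.9 TPM with IL-21 (-1.91 ± 0.49, adjusted p = 0.0123), a call that ended without library 3 of the IL-4 group at 24 h (-1.55) or library 2 of the IL-21 group at 24 h. The calls of Ighe, Ccl22, Cish, Mki67 and Hist1h2ah were not made in the fit to the 12 libraries alone (adjusted p = 0.076, 0.126, 0.0904, 0.105 and 0.0569). Cdkn1a fell with both, from 166, 119 and 183 TPM to 2.64, 2.65 and 2.22 TPM with IL-21, and the difference was 0.82 ± 0.35 (adjusted p = 0.105), called after rescaling (1.21).

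**Figure D5:**
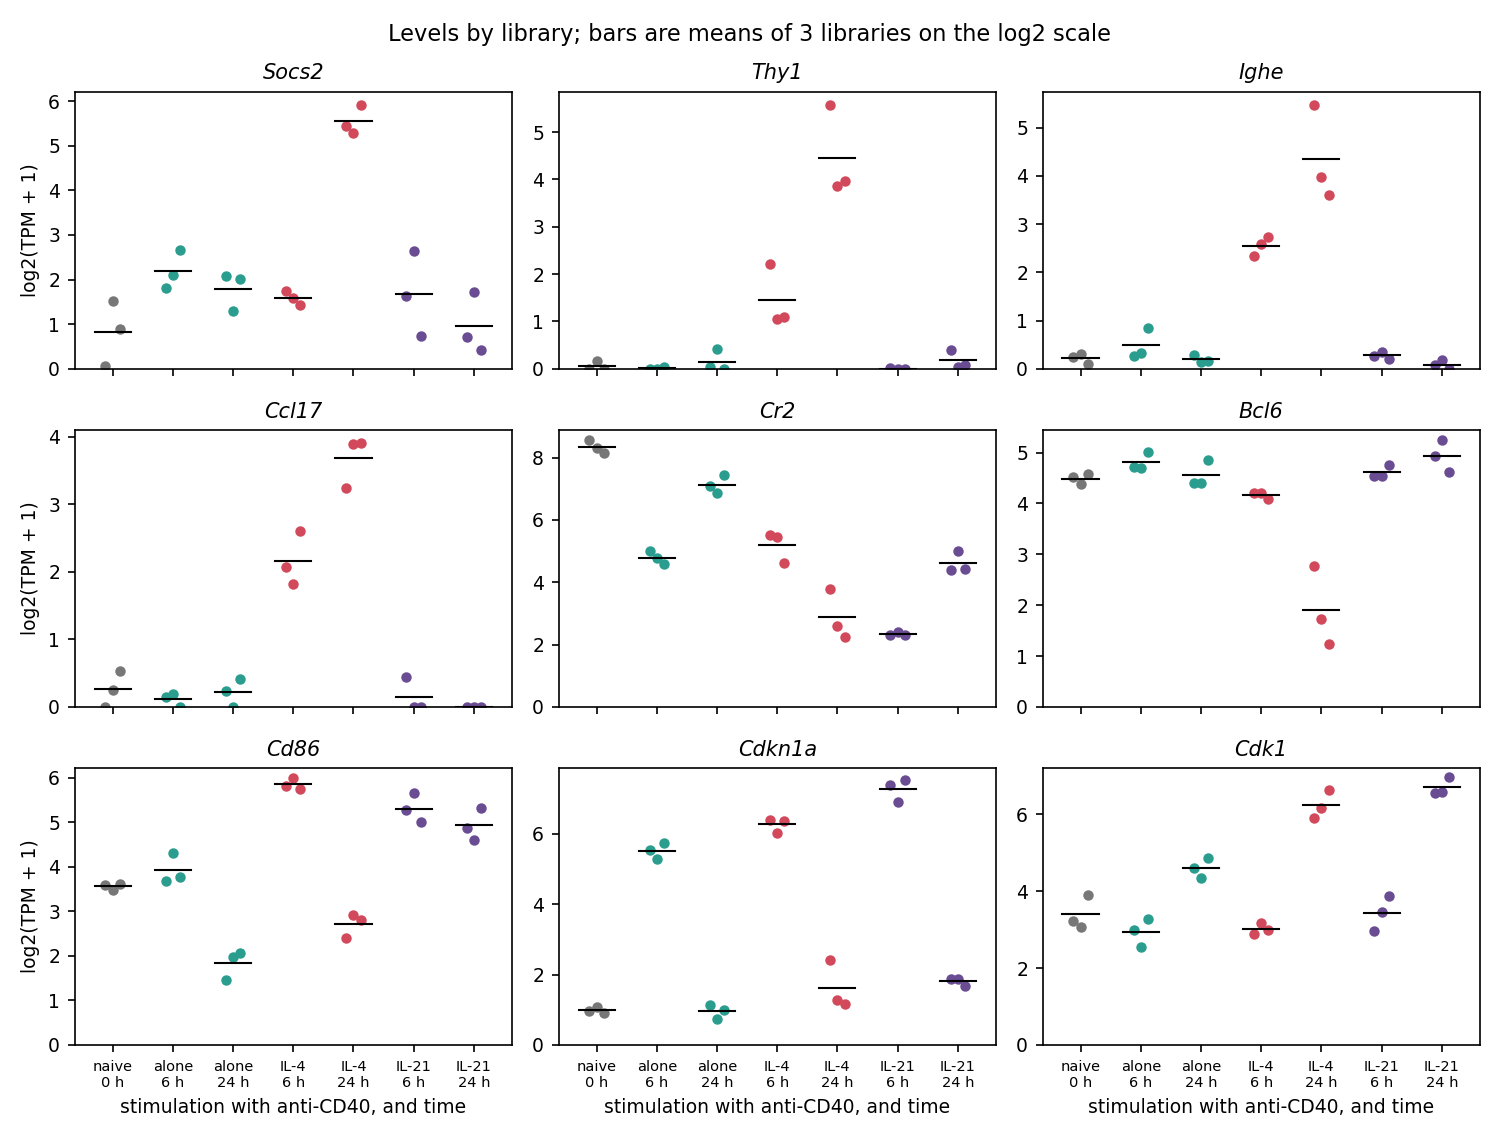
Level of 9 genes in each library, log2(TPM + 1), in naive cells and at 6 h and 24 h with anti-CD40 alone (green), with IL-4 (red) or with IL-21 (purple). Bars are means of 3 libraries on the log2 scale. Socs2, Thy1, Ighe and Ccl17 are highest with IL-4 at 24 h, Bcl6 and Cr2 at 24 h are lower with IL-4 than in the other stimulations, and Cdkn1a falls from 6 h to 24 h in all 3 stimulations.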

How the data were processed

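Polyadenylated RNA of 27 libraries in 9 groups of 3 was quantified by the authors with Salmon 1.9.0 on GRCm38/mm10, per the submitters' processing notes, and deposited as TPM per gene. The deposited TPM table holds 35604 genes, of which GENCODE M21 named 35301, and no counts, and the listed values of the 6 IL-4 libraries sum to 770742 to 825365 and were used as listed. The filter kept 12147 genes, those reaching 1 TPM in 3 or more libraries, and log2(TPM + 1) was fitted in limma 3.58.1 (R 4.3.3) with 1 mean per group, all 27 libraries, a variance trend and 18 residual degrees of freedom. The log scale understates changes of low genes. P-values were adjusted by Benjamini-Hochberg over all genes of a comparison. Spread was shared over all groups because 3 libraries estimate it poorly.

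Genes named are the 12 largest called rises and falls with at least 5 TPM and no overlap, up to 3 rises and 3 falls of each of 33 gene lists, a panel of B cell and cytokine genes, and the 6 largest differences in each direction between stimulations, passing over unnamed models, pseudogenes and immunoglobulin segments. A few genes that this rule names are not reported here. The members and lists were chosen with earlier results of these data known. Alternatives were another pseudocount, other filters, rescaling, no trend, the compared groups alone, a replicate block, library weights and each library left out. The procedure was tested on simulated data.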

Additional observations from a re-analysis of the deposited data

Results flagged for a closer look

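Time changes that differed between stimulations stand out, as called by the test of the difference itself (limma, adjusted over all 12147 genes). Between IL-4 and anti-CD40 alone, 20 of the 22 differences printed were called, against 7.19% of all genes. The largest were chosen among called genes, so that count was largely set by the choice. The fit to the 12 libraries alone did not call the differences of Ighe, Cdk1, Bub1, Ccl17, Kif11, Nfkbia, Foxo1, Bcl6, Ciita and Ets1. Higher with IL-4 were Socs2 (4.35 ± 0.65), Tmem176b (3.26 ± 0.57), Thy1 (2.88 ± 0.49), Slpi (2.81 ± 0.45), Hist1h3a (2.18 ± 0.58), Ighe (2.09 ± 0.43), Cdk1 (1.55 ± 0.38), Hist1h2ap (1.46 ± 0.19), Bub1 (1.43 ± 0.34), Ccl17 (1.40 ± 0.33) and Kif11 (1.37 ± 0.30). Lower were Nfkbia (-1.49 ± 0.33), Foxo1 (-1.96 ± 0.43), Bcl6 (-2.01 ± 0.36), Ciita (-2.17 ± 0.45), Ets1 (-2.90 ± 0.85), Vim (-2.91 ± 0.40), Trim7 (-3.34 ± 0.50), Itgb3 (-3.44 ± 0.55) and Cr2 (-4.66 ± 0.44).

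Between IL-4 and IL-21, 19 of the 20 differences printed were called, against 15.4% of all genes, and again the largest were chosen among called genes. The fit to the 12 libraries alone did not call the differences of Hist1h2ah, Ighe, Ccl22, Cish and Mki67. Higher with IL-4 were Socs2 (4.68 ± 0.65), Epb41l4b (3.72 ± 0.34), Slamf7 (3.55 ± 0.24), Hist1h2ah (2.96 ± 0.92), Il1a (2.92 ± 0.25), Rgs1 (2.88 ± 0.41), Ighe (1.99 ± 0.43), Ccl22 (1.88 ± 0.50), Cish (1.72 ± 0.43) and Ccl17 (1.66 ± 0.33). Lower were Mki67 (-1.91 ± 0.49), Bcl6 (-2.58 ± 0.36), Cd86 (-2.77 ± 0.30), Klf2 (-2.98 ± 0.45), Pxdc1 (-3.89 ± 0.53), Dok3 (-4.08 ± 0.40), Scimp (-4.10 ± 0.31), Vim (-4.14 ± 0.40) and Cr2 (-4.59 ± 0.44). Both sets share the 6 IL-4 libraries, and groups of 3 are too small for a test of single outlying libraries.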

How the results depend on the processing

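Counts of calls moved with the handling of the libraries. For the time change with IL-4 (3091 called, 1071 higher and 2020 lower), limma library weights gave 6866 (2064 and 4802) and the 6 libraries alone 522 (296 and 226). Rescaling gave 2100 higher, and rescaling without library 1 at 24 h, an alternative chosen after seeing the data, gave 5091 called and 2826 higher. Leaving out 1 library at a time gave 1846 to 4822 called, 794 to 1173 higher and 969 to 3649 lower. For the difference from anti-CD40 alone (873), the count was 572 with no filter, 1680 after rescaling, 1542 without mitochondrial, ribosomal protein and pseudogene transcripts, 6048 with weights, 198 with the 12 libraries alone, 3661 with the added alternative and 405 to 3887 without 1 library. For the difference from IL-21 (1867), these were 6453 with weights, 380 with the 12 libraries alone, 4242 with the added alternative and 826 to 4995 without 1 library. The causes were not tested. Other counts, with a pseudocount of 0.1, a filter at 5 TPM or no variance trend, stayed within 1.5 times.

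Of the 99 time changes of named genes that were called, 64 kept their side of the threshold in every alternative, the 24 largest among them. Among the results on named genes, signs turned only for 5 values, none of them called in the reported fit. The time change of Dok3 was 0.20 after rescaling, 0.16 with the added alternative and -0.34 to 0.055 with 1 library left out. That of Sesn1 was -0.023 with weights and -0.032 to 0.10 with 1 library left out. With 1 library left out, Ccnd2 ranged from -0.067 to 0.87 and Fcer2a from -0.0095 to 1.08, both lowest without library 1 at 24 h. The Cdkn1a difference from anti-CD40 alone was 0.27 with a pseudocount of 0.1, 0.22 after rescaling, 0.17 without mitochondrial, ribosomal protein and pseudogene transcripts and -0.48 to 0.15 with 1 library left out, and with library weights it was called lower (-0.52, adjusted p = 0.0296).

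Libraries share replicate numbers, but no label pairs them. Deviations of same-numbered 6 h and 24 h libraries with IL-4 correlated at 0.304, 0.102 and 0.0487, and in 3 of 6 libraries the best match had the same number, so the numbers were not taken as pairs. With the number as a replicate block, 3502 genes were called for the time change, 1110 for the difference from anti-CD40 alone and 2444 for that from IL-21. Il4ra and Socs1 passed the threshold with the block.

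Read depth is unknown, and low values therefore carry no interval. Where a leave-one-out fit left 2 libraries in a group, their spread was taken from all groups. In simulated data of the same size, 90 of 100 genes changed by 2 on the log2 scale were recovered and 45 of 100 changed by 1. The simulated noise was independent and equally wide in every library, and only genes of higher mean level were changed. The real libraries were uneven, library 1 at 24 h above all, so these rates do not describe the reported comparison.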
